A study of Bos taurus with 8 samples.

Results

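The genes described here are 8 members of the SIX-, EYA- and DACH-families of transcriptional regulators, *SIX2*, *SIX4*, *SIX5*, *EYA1*, *EYA2*, *EYA3*, *EYA4* and *DACH1*. They were taken by symbol from the 18871 named genes of the deposited count table, and all 8 were found there. The table covers 8 preadipocyte clones of Bos taurus, each grown from 1 cell of the stromal vascular fraction (SVF), the non-adipocyte cells that remain when fat is digested. Clones IMF1 to IMF4 came from intramuscular fat (IMF), which lies between muscle fibers, and clones SF1 to SF4 from subcutaneous fat (SF) of adult Angus-cross steers, that is, castrated males. The paper places RNA collection during growth, before adipogenic induction, whereas the deposited description mentions induction first, so the state of the cells at collection is not certain. Each clone stands for 1 cell that had been selected for fast growth, strong adipogenic potential and fibroblast-like shape, so the clones may not represent a depot. Which IMF and SF clones share a steer is not given in the sources used here.

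In the embryo these proteins act upstream of skeletal muscle formation. SIX-family proteins are homeodomain transcription factors that bind DNA, while EYA proteins do not bind DNA themselves but join SIX-family proteins as co-activators and also act as protein phosphatases. DACH1 is a chromatin-bound cofactor that can turn the same complexes toward repression. In muscle precursors, SIX-family proteins bind regulatory elements of myogenic factor genes such as *MYF5*, *MYOD1* and *MYOG*. The comparison asks whether clones from fat within muscle differ in these upstream regulators from clones of subcutaneous fat.

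Total counts ranged from 19654917 to 29308882 per clone. Levels are given as CPM, counts scaled to a common library size after TMM normalization, which corrects that size for composition. The smallest level taken as measurable, 3 counts, equalled 0.0981 to 0.165 CPM, and this floor covers counting error only. A gene was called when its adjusted p in edgeR's quasi-likelihood test was under 0.05 and its log2 fold change was at least 1 in size. The p-values measure the spread between these clones and take no account of IMF and SF clones that share a steer. The paper took each clone from an SVF sample of its depot, with samples isolated individually, but does not name each clone's steer. Where clones of a depot share a steer, the p-values do not extend to other animals.

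The 8 genes did not move together. *SIX2*, *EYA1* and *EYA4* were higher in the IMF clones, by 8.23-fold, 30.6-fold and 74.3-fold in the fit. Every SF clone was at or under the floor for *EYA1*, and SF1 and SF4 had no read of *EYA4*, so the sizes of these folds are uncertain. *EYA3* was higher by only 1.21-fold, and *SIX4*, *SIX5*, *EYA2* and *DACH1* were not called. All 8 genes had at least 20 counts in total and were tested. Of these, 3 were called, compared with 8.82% of the 18339 genes tested. All 3 were higher in IMF, where 4.78% of genes tested were called, and 0 were lower, where 4.04% were. At an unadjusted p under 0.05, edgeR found 0 members lower in IMF too, and DESeq2 and limma-voom each called 3 higher and 0 lower. In 4 genes the groups did not overlap, all with IMF above SF, compared with 32.1% of genes tested in either direction and 18.0% in that direction. The median log2 fold change was 0.91 over the 8 genes and -0.03 over all genes tested.

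**Figure D1:**
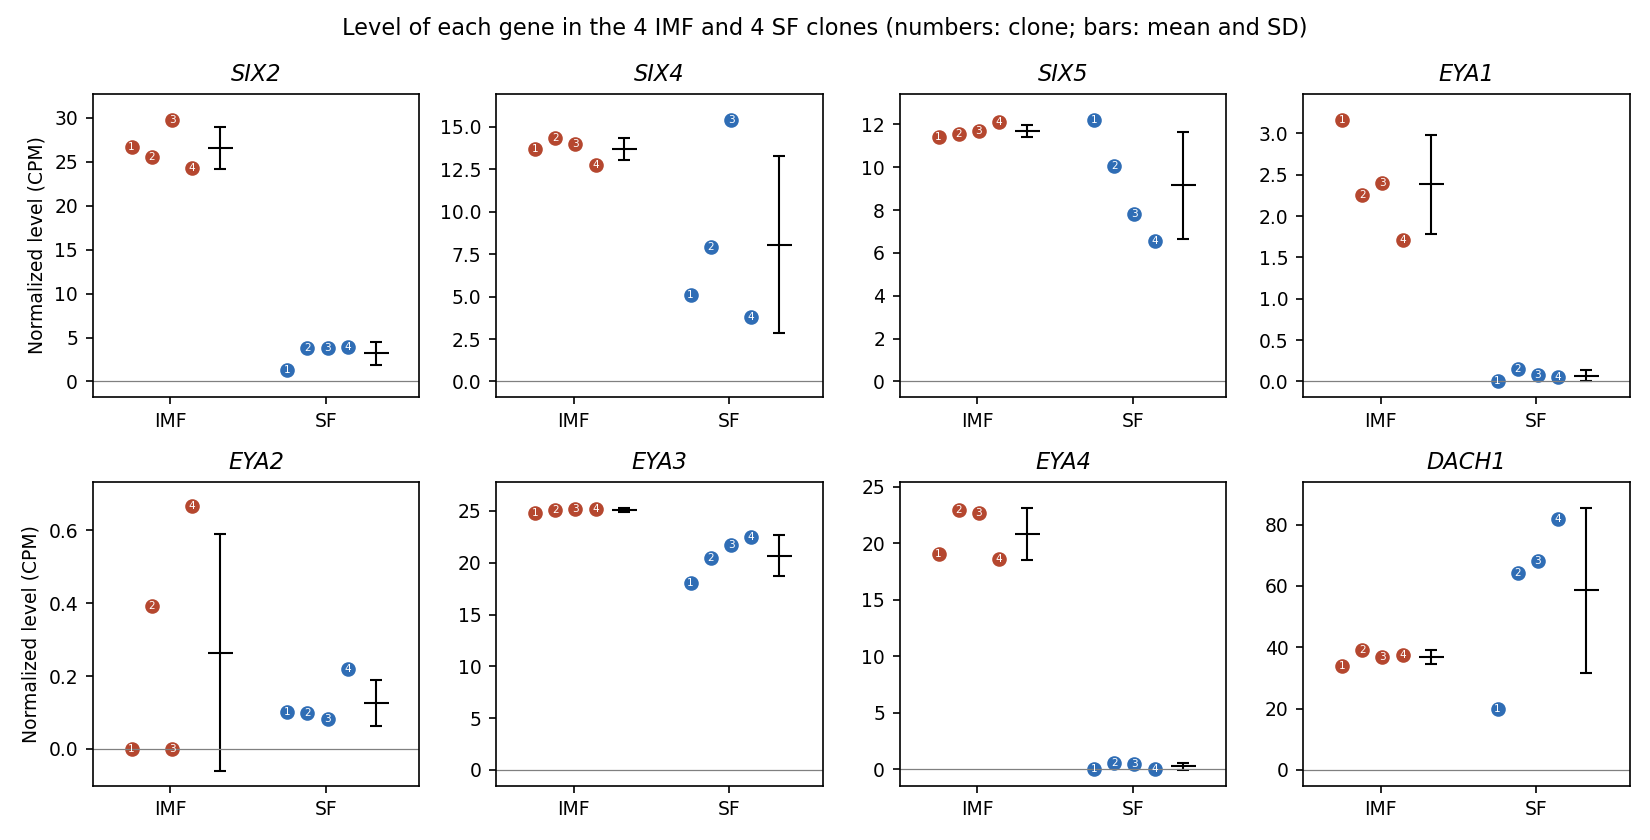
Normalized level in CPM (vertical axis, a separate scale for each gene) in the 4 IMF clones (red) and the 4 SF clones (blue); numbers give the clone, and the black bars show the mean and SD of 4 clones. *SIX2*, *EYA1*, *EYA3* and *EYA4* have all IMF points above all SF points, whereas for *DACH1* SF1 lies below the IMF clones and SF2 to SF4 lie above them.

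Among the SIX-family genes, *SIX2* (chromosome 11, 27425261 to 27429535 in ARS-UCD2.0), a homeodomain factor known for keeping kidney progenitors undifferentiated, differed most between the depots. It had 26.6, 25.5, 29.8 and 24.3 CPM in IMF1 to IMF4 (555, 780, 657 and 510 counts). In SF1 to SF4 it had 1.28, 3.80, 3.81 and 3.97 CPM (25, 76, 94 and 72 counts). The groups were far apart, and SF1 lay well below the other SF clones. IMF clones averaged 26.5 ± 2.36 CPM and SF clones 3.22 ± 1.29 CPM (mean ± SD, n = 4 per depot), and edgeR gave a log2 fold change of 3.04 ± 0.30 (SE) with an adjusted p of 0.00026. By level, *SIX2* stood at percentile 70.7 of the genes tested in IMF and 32.3 in SF, so it was not silent in subcutaneous clones. It was called in all 18 alternative fits, with a log2 fold change from 2.78, without SF1, to 3.19.

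*SIX4* (chromosome 10, 72873718 to 72886158) encodes another SIX-family factor of muscle, first described as a binder of a sodium pump gene element. It was even among the IMF clones, at 13.7, 14.3, 14.0 and 12.8 CPM. Among the SF clones it had 5.08, 7.91, 15.4 and 3.80 CPM. Thus 3 SF clones lay below every IMF clone, and SF3 lay above all of them. With all clones the log2 fold change was 0.76 (95% interval -0.12 to 1.63, adjusted p = 0.187, edgeR), so it did not pass either threshold. Without SF3 it was 1.26 with an adjusted p of 0.0082 in edgeR's test, which passes both thresholds. The call on *SIX4* therefore rested on that clone.

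*SIX5* (chromosome 18, 53305388 to 53309473) lies beside *DMPK*, the gene whose repeat expansion causes myotonic dystrophy. It had 11.4, 11.5, 11.7 and 12.1 CPM in the IMF clones and 12.2, 10.1, 7.79 and 6.56 CPM in SF1 to SF4. SF1 was slightly above the highest IMF clone and the other SF clones were below the lowest. The log2 fold change was 0.35 (95% interval -0.07 to 0.77, adjusted p = 0.198, edgeR). Without SF1 the adjusted p was 0.0343 in edgeR's test, at a log2 fold change of 0.52, which is still under the fold threshold. The span of *SIX5* shares 84 bases with that of *MEIOSIN*, and because the paper and the labels differ on whether the libraries kept strand, reads there may belong to either gene.

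The EYA genes differed in how they compared between depots: *EYA4* and *EYA1* were called, *EYA3* differed little, and *EYA2* was near the floor. *EYA4* (chromosome 9, 71362352 to 71728033), a co-activator expressed in developing muscle and known from inherited hearing loss, had 19.0, 22.9, 22.7 and 18.6 CPM in the IMF clones (397, 700, 500 and 391 counts). In the SF clones it had 0, 12, 11 and 0 counts. SF1 and SF4 had no read, which allows up to 3 counts, or 0.154 and 0.165 CPM, while SF2 and SF3 had 0.601 and 0.446 CPM. In edgeR the log2 fold change, the largest of the 8, was 6.21 ± 0.65 (SE) with an adjusted p of 0.000306. From the summed counts, 1988 in IMF and 23 in SF, the ratio of levels was 75.2 (95% exact interval 50.0 to 119, counting error only). *EYA4* was called in all 18 alternative fits, and its log2 fold change ran from 5.82, without SF1, to 7.33, with limma-voom.

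*EYA1* (chromosome 14, 34786252 to 35159749), which acts with SIX-family factors in muscle, kidney and ear development, was lower in level than *EYA4* and showed the same direction. It had 66, 69, 53 and 36 counts in IMF1 to IMF4, or 3.17, 2.26, 2.40 and 1.71 CPM. In SF1 to SF4 it had 0, 3, 2 and 1 counts, so that every SF clone was at or under the floor of 3 counts. The log2 fold change in edgeR was 4.93 ± 0.60 (SE), with an adjusted p of 0.000635. The ratio from the summed counts, 224 and 6, was 32.5 (95% exact interval 14.7 to 89.5, counting error only). *EYA1* too was called in all 18 alternative fits, at log2 fold changes from 3.92, with a prior count of 2, to 5.49, without SF2. With SF counts this low, the size of its fold depends on the prior count.

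*EYA3* (chromosome 2, 125201937 to 125390270) encodes the most broadly expressed EYA protein. It had 24.9, 25.1, 25.2 and 25.2 CPM in the IMF clones and 18.0, 20.5, 21.8 and 22.5 CPM in the SF clones, without overlap. The difference was small, with a log2 fold change of 0.28 (95% interval 0.09 to 0.46, adjusted p = 0.0357, edgeR), and it did not reach the fold threshold. Its adjusted p was under 0.05 in 10 of 18 alternative fits and, with 1 clone left out, reached 0.103 in edgeR's test (without IMF3). With *EYA3*, 4 of the 8 genes passed an adjusted p of 0.05 regardless of fold, as did 25.8% of genes tested.

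*EYA2* (chromosome 13, 75497669 to 75761784), another EYA co-activator of muscle precursors, was close to the floor throughout. The IMF clones had 0, 12, 0 and 14 counts and the SF clones 2, 2, 2 and 4. IMF1 and IMF3 lay below all SF clones and IMF2 and IMF4 above them. A difference was not detectable at this depth (log2 fold change 1.06, 95% interval -1.98 to 4.10, adjusted p = 0.597, edgeR), and limma-voom gave the opposite sign, -0.21. All 8 counts of *EYA2* are even numbers, which held for 8.60% of genes tested.

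*DACH1* (chromosome 12, 46070254 to 46548718), the cofactor of the network, was above its IMF level in 3 of the 4 SF clones. It had 33.8, 39.0, 36.9 and 37.4 CPM in the IMF clones. In SF1 to SF4 it had 19.9, 64.2, 68.2 and 81.8 CPM. SF1 was below every IMF clone, and SF2, SF3 and SF4 were above every one. With all clones the log2 fold change was -0.67 (95% interval -1.49 to 0.15, adjusted p = 0.21, edgeR). Without SF1 it was -0.96 with an adjusted p of 0.00048 in edgeR's test, just short of the fold threshold.

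**Figure D2:**
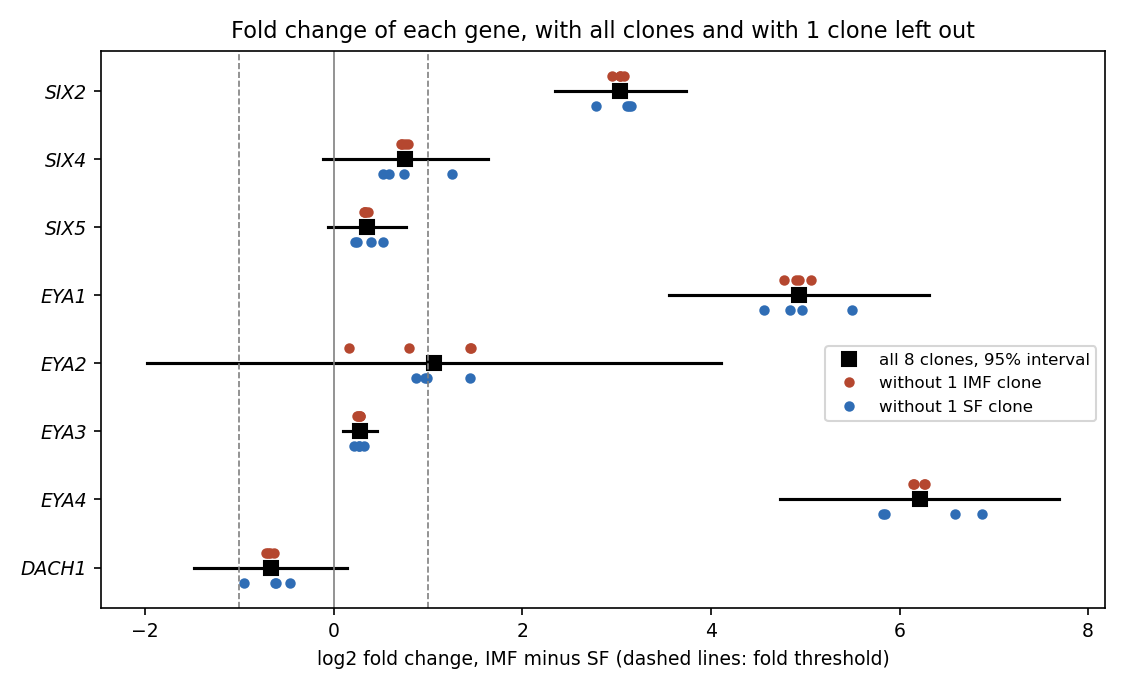
The log2 fold change of each gene, IMF minus SF (horizontal axis), with all 8 clones (black squares, lines for the 95% interval) and with 1 IMF clone (red) or 1 SF clone (blue) left out; dashed lines mark the fold threshold of 1. *SIX2*, *EYA1* and *EYA4* stay beyond the right dashed line in every fit, *SIX4* crosses it once, at 1.26 without SF3, and *DACH1* lies between -0.96 and -0.47.

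Levels of different genes were compared per length, as TPM (transcripts scaled to a common total), computed from the counts and the deposited gene length. In IMF the order of mean TPM was *SIX2* (21.3), *DACH1* (11.9), *EYA3* (6.82), *SIX5* (6.80), *EYA4* (5.43), *SIX4* (3.42), *EYA1* (0.804) and *EYA2* (0.163). In SF it was *DACH1* (18.7), *EYA3* (5.54), *SIX5* (5.30), *SIX2* (2.54), *SIX4* (2.04), *EYA2* (0.0794), *EYA4* (0.0723) and *EYA1* (0.0245). *EYA3* and *SIX5* were neighbours in both orders and differed by less than their SDs, which were 0.473 and 0.432 TPM in IMF and 0.631 and 1.61 TPM in SF. In SF, the means of *SIX2* and *SIX4* also differed by less than their SDs (1.05 and 1.40 TPM), and *SIX4* was above *SIX2* in SF1 and SF3. The SF mean of *EYA4* differed from those of its neighbours *EYA2* and *EYA1* by less than its SD of 0.0858 TPM, and all 3 genes were at or near the floor there. *SIX2* was the highest of the 8 genes in every IMF clone and in no SF clone.

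*SIX2*, *SIX4* and *SIX5* together had 31.5 ± 4.01 TPM in the IMF clones and 9.88 ± 2.34 TPM in the SF clones (SD, n = 4 each), described here without a test. The share of *SIX2* in that sum was 65.4% to 69.8% among IMF clones but 10.9% to 39.9% among SF clones. *SIX5*, in contrast, held 21.7% ± 1.59 in IMF and 54.4% ± 15.3 in SF, where SF1 was highest at 75.6%. The sum leaves out the family members that are not among the 8 genes. The 4 EYA genes summed to 13.2 ± 1.08 TPM in IMF and 5.72 ± 0.718 TPM in SF. In SF clones *EYA3* made up from 95.3% to 98.6% of the EYA sum, with the other 3 EYA genes sharing the rest. In IMF clones *EYA3* held from 49.4% to 53.9%, *EYA4* from 38.2% to 43.6% and *EYA1* from 4.50% to 8.28%.

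**Figure D3:**
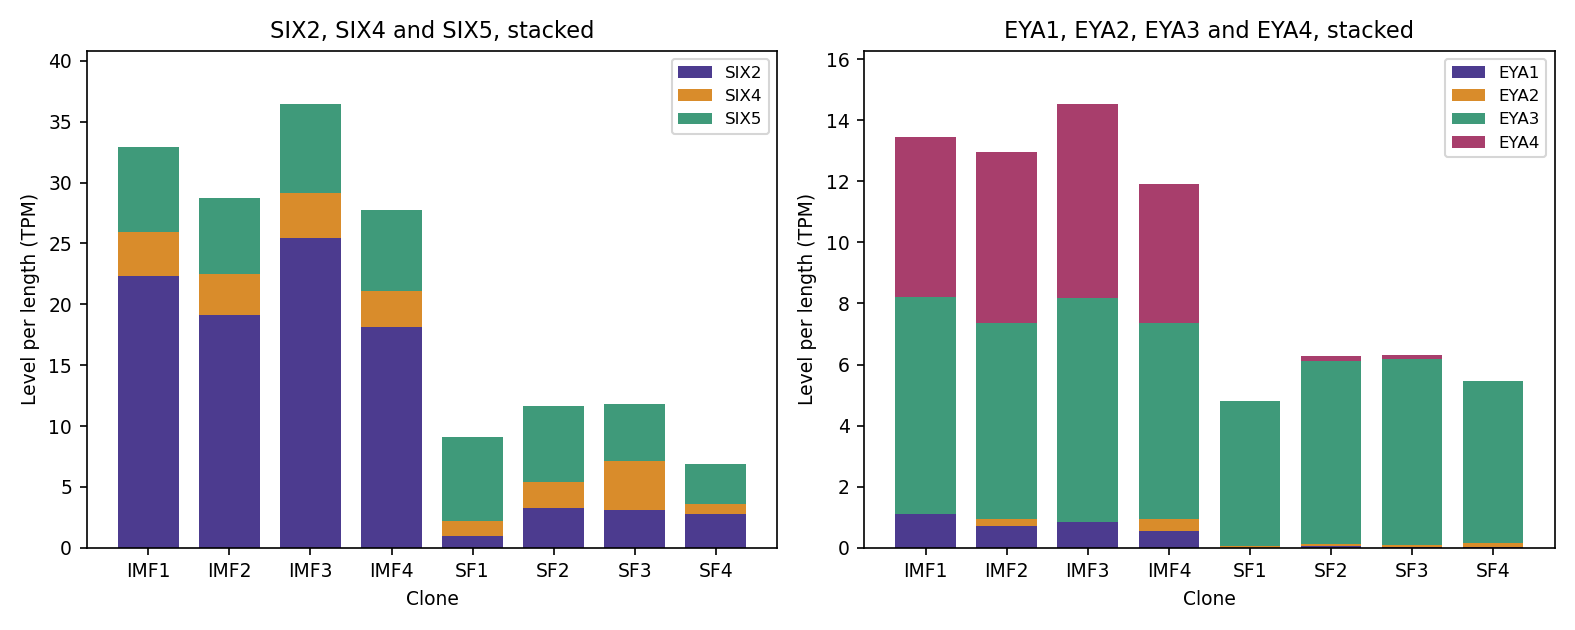
Level per length in TPM (vertical axis) of *SIX2*, *SIX4* and *SIX5* (left) and of the 4 EYA genes (right) in each clone, stacked by gene. *SIX2* fills most of each IMF bar on the left, and on the right *EYA4* is seen in the IMF clones while *EYA3* fills at least 95.3% of each SF bar.

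The 5 members with at least 25 counts in every clone, *SIX2*, *SIX4*, *SIX5*, *EYA3* and *DACH1*, varied less among the IMF clones than among the SF clones. Their SD of log2 CPM was larger in SF in 5 of 5 genes, compared with 64.8% of genes tested, and ran from 0.00986 to 0.125 in IMF and from 0.141 to 0.927 in SF. The spread of *EYA1* and *EYA4* in SF and of *EYA2* in both depots rests on counts at or near 0 and was not read. The coefficient of variation (CV) of *EYA3* among the IMF clones was 0.684%, below the 4.11% that counting alone would give at its mean of 593 counts. *SIX5* (2.49% against 6.02%) and *SIX4* (4.90% against 5.55%) were also below counting error in IMF. In SF the CV was 64.6% for *SIX4*, 45.8% for *DACH1*, 40.1% for *SIX2* and 27.3% for *SIX5*, each well above counting error. Over the 11719 genes averaging 100 counts or more, the spread was under counting error in 19.1% in IMF and in 6.24% in SF. These shares count any spread under counting error, so they do not show how common one as low as that of *EYA3* was.

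**Figure D4:**
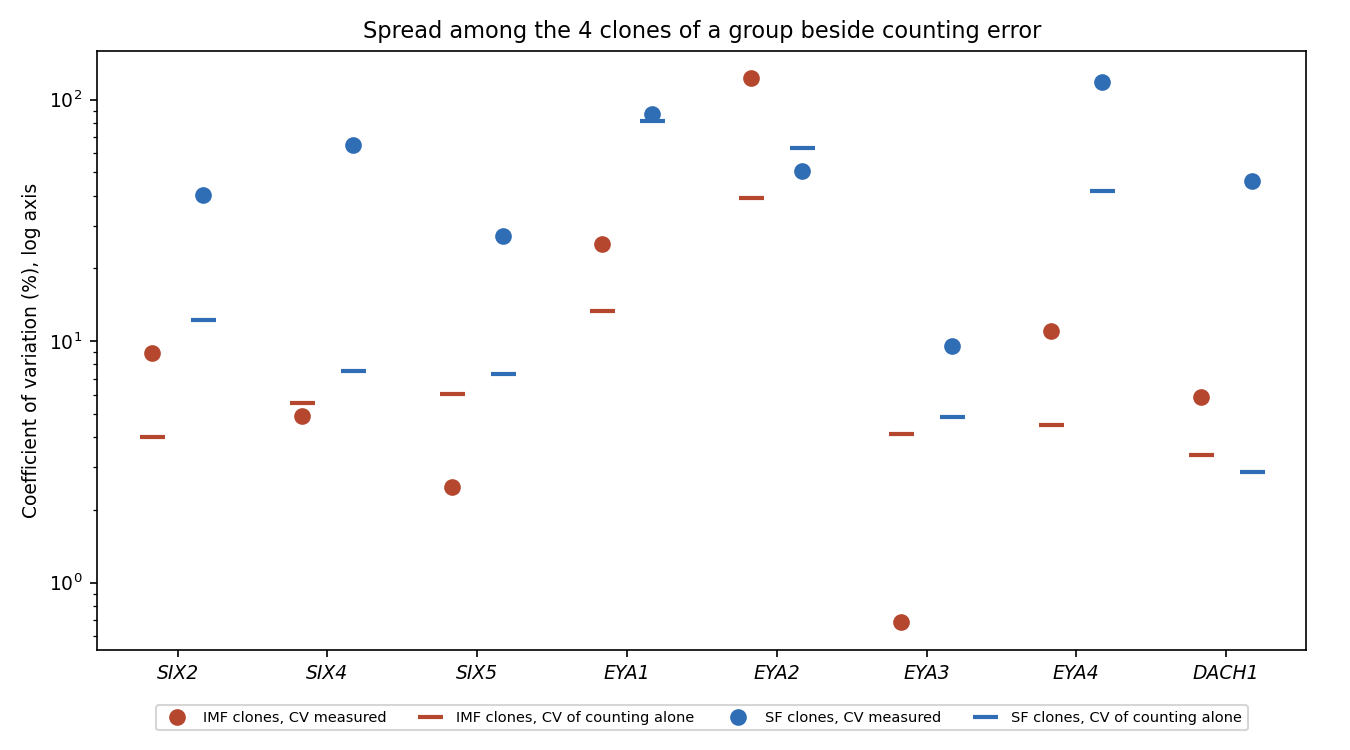
Coefficient of variation in percent (vertical log axis) of each gene among the 4 IMF clones (red points) and the 4 SF clones (blue points), with short lines for the value that counting alone gives. Red points lie below blue points for all genes but *EYA2*, the values of *EYA1* and *EYA4* in SF and of *EYA2* rest on counts near 0, and for *EYA3* the red point, at 0.684%, lies under its line.

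The SF clones did not rank alike across the members. SF1 was the lowest SF clone for *SIX2*, *EYA1*, *EYA3* and *DACH1* and the highest for *SIX5*, and it had no read of *EYA4*. SF3 was the highest for *SIX4*, SF4 the highest for *DACH1* and the lowest for *SIX4* and *SIX5*. SF1 also stood apart in *ACTA2*, the smooth muscle actin gene, with 126473 counts against 26590 to 72169 in the other SF clones. The part of such differences in the results for *SIX2*, *SIX5* and *DACH1* was not tested. Without SF1, *SIX2*, *EYA1* and *EYA4* were still called.

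Genes on either side of the members on the chromosome were read from the same fit, up to 2 on each side. Only tested genes were eligible, so some lay far off. On 1 side of *DACH1* they were 5466799 and 8671811 bases away. Of 32 neighbouring genes tested, edgeR called 0 higher and 0 lower in IMF, and their median log2 fold change was 0.13. At an unadjusted p under 0.05, 9 were higher and 4 lower, and DESeq2 and limma-voom each called 1 higher. In edgeR's test 7 neighbours (21.9%) had an adjusted p under 0.05, a share below the 25.8% of all genes tested. *SRBD1*, 376503 bases from *SIX2*, had a log2 fold change of 0.57, and *MNAT1*, 8919 bases from *SIX4*, of 0.55. For *BORA*, 927482 bases from *DACH1*, it was 0.96. On the sides of *EYA2* the signs were opposite, at -0.91 for *SLC2A10* and 0.35 for *ZMYND8*. Beside *EYA3*, whose own value was 0.28, *DNAJC8* had 0.35 and *ATP5IF1* 0.34. These 7 genes and *DMPK* were named after their values were seen. *DMPK*, a muscle protein kinase gene that lies 890 bases from *SIX5*, had 124, 114, 124 and 109.9 CPM in the IMF clones and 107, 18.4, 10.1 and 22.9 CPM in SF1 to SF4. SF1 was thus close to the IMF clones for *DMPK*, and it was also the SF clone with the highest *SIX5*. Its log2 fold change of 1.58 ± 0.66 (SE) had an adjusted p of 0.115 in edgeR.

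Other genes of the pathway were taken from 4 lists. These lists were chosen with earlier results of these data known, so their counts are description and not a test. Over all genes tested, 4.78% were called higher in IMF and 4.04% lower. Of 6 muscle genes with known SIX-binding elements that were tested, 5 were called higher in IMF and 0 lower (0 also at an unadjusted p under 0.05 and by DESeq2 and limma-voom). Their median log2 fold change was 6.90, with 4 genes that had no read in SF set at their lower bound of 3 counts per SF clone, beside -0.03 over all genes. The fitted median was 10.18. *MYOD1* had 162 ± 12.7 CPM in IMF (SD, n = 4), *MYOG* 40.7 ± 5.24 CPM and *MYF5* 20.1 ± 1.26 CPM, while the SF clones had no read of *MYOD1* or *MYOG* and 0 to 5 counts of *MYF5*. Against the floor, *MYOD1* was at least 1098-fold and *MYOG* at least 275-fold higher. *CKM* and *TNNC1* were the other 2, and *ALDOA*, a glycolytic enzyme gene, was level at 559 ± 21.2 and 556 ± 149 CPM. Among 5 PAX genes tested, which encode developmental factors upstream of these families, 2 were called higher and 0 lower (0 also at an unadjusted p under 0.05), and DESeq2 and limma-voom each called 3 higher and 0 lower. *PAX9*, a skeletal patterning factor, averaged 3.03 ± 0.694 CPM in the IMF clones against 0.526 ± 0.362 CPM in the SF clones, at an adjusted p of 0.00656 in edgeR. *PAX3*, a factor of muscle precursors, had 9, 18, 7 and 4 counts in IMF and 0 in all SF clones. With *PAX3* at its bound the median log2 fold change of the PAX genes was 1.37, and 1 of them was called without IMF2 and 3 without SF4. With the clone number as a block 1 was called, and 0 when edgeR tested for folds beyond a log2 value of 1.

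Among 10 genes for cofactors of SIX- and DACH-family proteins, 1 was called higher and 1 lower. Both encode Groucho-type corepressors, which SIX-family proteins can recruit in place of EYA. *TLE1* was higher in IMF, at 4.55 ± 0.481 against 1.83 ± 0.415 CPM (log2 fold change 1.31, adjusted p = 0.00298, edgeR). *TLE2* was lower, at 69 to 94 counts per IMF clone against 126 to 331 per SF clone (log2 fold change -1.73, adjusted p = 0.000727, edgeR). Of 7 other known SIX-family target genes, 2 were called higher and 1 lower in IMF. *MYC*, a growth regulator, had 74.7 ± 3.28 against 32.2 ± 10.9 CPM, *SLC12A2*, a chloride cotransporter gene, 37.3 ± 0.865 against 16.7 ± 8.07 CPM, and *CCND1*, the cyclin D1 gene, 53.1 ± 4.77 against 114 ± 46.9 CPM. The median log2 fold change of this list was -0.44. Its calls rested on single clones: without SF2, 0 of these genes were called higher, without IMF2, IMF3 or SF1, 1 was, and without SF4, 0 were called lower. When edgeR tested for folds beyond a log2 value of 1, the higher calls of the PAX genes, of *TLE1* and of these targets, and the lower call of *CCND1*, were all lost (0 called), while the cofactor list kept 1 lower call.

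The 3 called members were set beside 12773 other genes that have a symbol and average 1 CPM or more, by the root mean square difference of log2 CPM over the 8 clones after centring each gene. For *SIX2* the nearest patterns were those of *CADM3* (0.207), a cell adhesion gene, *SESN3* (0.223), a sestrin gene of nutrient sensing, and *ST6GAL1* (0.232), a sialyltransferase gene. For *EYA1* they were *P4HA3* (0.255), a collagen hydroxylase subunit gene, *FABP3* (0.299), the heart-type fatty acid binding protein gene, and *CLCN4* (0.319), a chloride exchanger gene. For *EYA4* they were *SLC7A8* (0.317), an amino acid transporter gene, *PDPN* (0.4998), the podoplanin gene, and *PECAM1* (0.522), an endothelial adhesion gene. Among the members, *EYA1* and *SIX2* were the most alike of the called genes, at 0.532. *EYA4* differed from *SIX2* by 1.86 and from *EYA1* by 1.44. The likeness values of *EYA1* and *EYA4* rest in part on floor values: every SF clone was at or under 3 counts for *EYA1*, and SF1 and SF4 had no read of *EYA4*, so their log2 CPM there was set by the prior count.

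Markers of several cell types moved with the depot. Beside their counts, 4.78% of all genes tested were called higher in IMF and 4.04% lower. Of 7 myogenic markers tested, 7 were called higher in IMF, with summed levels from 682 to 767 CPM in IMF and from 0.751 to 31.2 CPM in SF, where *MYOD1* and *MYOG* were at 0. *MYOD1*, *MYOG* and *MYF5* are also among the muscle genes with known SIX-binding elements, so this count repeats part of that one. Of 8 endothelial markers, 7 were called higher, with 149 to 196 CPM in IMF and 27.3 to 38.1 CPM in SF, where *KDR* and *EMCN* were at 0. Most of the SF sum was *CLDN5*, a tight junction gene that was not called, and the other 7 markers summed to 125 to 143 CPM in IMF and 2.67 to 4.40 CPM in SF. Of 4 smooth muscle and pericyte markers, 2 were called higher and 2 lower, with 1093 to 1221 CPM in IMF and 1286 to 6628 CPM in SF. Of 7 stromal preadipocyte markers, 1 was higher and 1 lower, with 1322 to 1382 CPM in IMF and 1409 to 1881 CPM in SF. *PDGFRA*, *PDGFRB* and *ITGB1* were high in all clones, *CD34* had 0 to 2 counts in an SF clone, and *PPARG*, the master regulator of adipogenesis, had 22 to 36 counts in IMF and 50 to 96 in SF. Of 5 leukocyte markers, 1 was higher and 1 lower (17.3 to 39.7 against 45.7 to 78.3 CPM). Epithelial markers were higher in 2 of 2 (2940 to 5784 against 1477 to 3054 CPM, with *CDH1* at 0 in SF). Among 3 mature adipocyte markers, 1 was called higher, *FABP4*, with a mean of 9.64 against 0.178 CPM. *PLIN1* was not called and was lower in every IMF clone, with means of 2.84 and 3.62 CPM. *CIDEC*, also not called, had 0.540 and 0.436 CPM. The summed levels of these 3 genes, 11.5 to 14.2 against 3.50 to 5.01 CPM, therefore differed mainly through *FABP4*. For 2 Schwann cell markers, 0 were called (0 also at an unadjusted p under 0.05 and by DESeq2 and limma-voom). The part of these cell types in the levels of *SIX2*, *EYA1* and *EYA4* was not tested. In such bulk clones, fewer cells expressing a gene and less RNA per cell cannot be told apart.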

How the data were processed

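RNA-seq was compared between 4 IMF and 4 SF clones, grouped by the sample titles. Per the paper and the submitters' processing notes, the authors used Trimmomatic 0.39 for trimming, the ARS-UCD2.0 build for alignment and featureCounts 2.0.2 for counting, and deposited raw counts per gene. The annotation release is not given in the sources used here. The paper names HISAT2 as the aligner and the submitters' processing notes name STAR 2.7.11a. The deposited table also holds each gene's length in bases, used for TPM. Columns with the authors' group means and DESeq2 comparison (fold changes, p-values) were not used. A row without a gene name (0.0148% to 0.0209% of counts) was left out.

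Genes with at least 20 counts in total were tested with edgeR 4.0.16 (TMM, two-sided quasi-likelihood test, Benjamini-Hochberg adjustment) in R 4.3.3; 532 genes fell below. Called genes had an adjusted p under 0.05 and a log2 fold change of at least 1 in size. Log2 CPM used a prior count of 2. Between any clones, counts differed far beyond sampling noise (chi-square per degree of freedom of at least 54.7), so none was counted as a repeat. On simulated counts for 18339 genes with 200 changed by a log2 fold change of 2, edgeR recovered 72% with 0 false calls, DESeq2 1.42.0 82.5% with 36, and limma-voom (limma 3.58.1) 67.5% with 1. The simulation used dispersions that edgeR itself estimated from these data and a single size of change, so it does not rank the tools. Figures were drawn with Python 3.11.15 and matplotlib 3.10.9.

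The alternatives tried were 2 other tools (DESeq2, limma-voom), 3 other scalings (RLE, upper quartile, total counts) and 2 other filters (none, or 10 counts in 4 clones). Others were a prior count of 2 for fold changes, in place of edgeR's smaller default, and edgeR's test of folds against a log2 value of 1. The last were a block by clone number and each clone left out. The members and lists were chosen with earlier results of these data known. Named genes were all members, at most 3 called genes per list by mean level, called neighbours (there were 0), marker genes, and the 3 most similar patterns per called member. *CKM*, *TNNC1*, *ALDOA*, *DMPK* and the 7 neighbours with an adjusted p under 0.05 fall outside this rule and were named after their values were seen. Coordinates and neighbours are from RefSeq for ARS-UCD2.0, in which all 8 members were matched by symbol; *TLE5* was matched to the older symbol *AES*. A planned search of promoters and comparison of proteins was not made.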

Additional observations from a re-analysis of the deposited data

Results flagged for a closer look

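Among 16 sets of 4 clones (8 genes in 2 groups), 2 had a clone far from the other 3 by Dixon's test at the 95% level, where chance gives about 1 in 20. For *SIX2* this was SF1, at 1.28 CPM, against 3.80 to 3.97 CPM in the other SF clones. For *EYA2* it was SF4, at 0.220 CPM, which is 4 counts against 2 in each of the other SF clones and close to the floor.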

How the results depend on the processing

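*SIX2*, *EYA1* and *EYA4* kept direction and call in all 18 alternatives, and *SIX5*, *EYA3* and *DACH1* kept direction and were called in none. The number of called members stayed at 3 except without SF3, where *SIX4* was called too (log2 fold change 1.26; 0.53 to 1.26 with 1 clone left out). *EYA2* reversed with limma-voom (-0.21) and could not be tested with at least 10 counts in 4 clones. Against a log2 fold change of 1, 631 genes were called in place of 1618, and 0 PAX genes, 0 cofactors and 0 other SIX-family targets were called higher and 0 other targets lower. With total counts alone 0 other targets were called lower; the median of all genes then moved from -0.03 to 0.12 and the share of called genes higher in IMF from 54.2% to 66.7%. With 1 clone left out, from 1 to 3 PAX genes (1 without IMF2, 3 without SF4) and from 0 to 2 other targets were higher (0 without SF2, 1 without IMF2, IMF3 or SF1), and 0 to 1 other targets lower (0 without SF4). Same-numbered clones had deviations correlated from -0.00933 to 0.139 (4 pairs), and 4 of 8 clones correlated best with their own number, so the numbers were not taken to pair the clones. With the clone number as a replicate block, 1489 genes were called, 1356 of them shared with the fit without it, 3 members were called and 1 PAX gene was higher; the adjusted p of *EYA3* was 0.0688 and no member's call changed. The causes were not tested. Depth limits *EYA2*, and *EYA1* and *EYA4* in SF.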
